A study of Bos taurus with 4 samples.

Results

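Histone-modifying enzymes write and erase the chemical marks on histones: methyltransferases and acetyltransferases add methyl and acetyl groups, and demethylases, deacetylases and sirtuins take them off. In the bovine embryo these marks are reset around the stage at which the embryo's own genome is activated, when RNA stored in the oocyte and RNA newly made by the embryo are both present. KDM5 proteins are H3K4 demethylases, enzymes that erase methylation at lysine 4 of histone H3, a mark of active promoters. The genes described here encode the enzymes that act beside them.

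Genes were chosen by symbol: those starting with KDM, JMJD, HDAC, SIRT, SETD, KMT, KAT followed by a digit, PRMT, SMYD, EHMT, SUV39, PRDM, PADI, EP300, CREBBP, NSD, HAT1, DOT1L or EZH, without KDM5A and KDM5C, which the small interfering RNAs (siRNAs) target. NSDHL matches these letters but encodes a sterol dehydrogenase, and it was left out. This gave 66 genes of 14002 named in the table, each with 1 RefSeq transcript. Another 44 symbols of the same stems had no transcript matched to them among the FPKM values and could not be analysed. Among them were EP300, DOT1L, KDM1A, KDM6B and KDM5B.

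Polyadenylated RNA came from bovine (Bos taurus) embryos of 8 to 16 cells on day 3 after insemination. In the knockdown (KDM5_KD, 2 libraries) KDM5A, KDM5B and KDM5C had been targeted by siRNAs injected into the zygote. The controls (NC, 2 libraries) had received negative control siRNAs. The treatment entry of the library labelled KDM5_KD replicate 2 names KDM6A, KDM6B and KDM6C instead, against its title, which was followed. The breed, the sex and the number of embryos in a library are not given in the sources used here, nor is it said whether replicates came from separate collections of embryos, so p-values measure the spread between these libraries, which may be technical.

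Values are FPKM, fragments scaled by transcript length and by the mapped fragments of the library. KDM5A had 28.4 and 27.1 FPKM in the NC libraries and 10.5 and 10.1 FPKM in the KDM5_KD libraries. KDM5C had 28.1 and 40.6 against 15.1 and 17.8 FPKM. Both targets were thus lower in both knockdown libraries, the one with the conflicting label included. FPKM sums ranged from 283347 to 322267 per library. Absolute read depth is unknown. From the steps between low values, NC replicate 1 had 0.682 times the depth of NC replicate 2, and the knockdown libraries had 0.801 and 0.785 times that depth.

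Marker genes were checked against the tissue label. The 13 transcripts found for a list of 18 oocyte and early embryo symbols, such as GDF9, BMP15 and ZP3, each reached 1 FPKM in at least 1 library, with summed levels of 495 and 374 FPKM in NC and 592 and 659 FPKM in KDM5_KD. The 6 transcripts found for 13 genome activation and lineage genes summed to 257 and 248 FPKM in NC and 228 and 208 FPKM in KDM5_KD. A list of 16 genes of cumulus and granulosa cells, the somatic cells around the oocyte, summed to 31.3 and 21.4 FPKM in NC and 47.7 and 45.1 FPKM in KDM5_KD. Of its 16 genes, FSHR, LHCGR, CYP19A1 and PTX3 stayed under 1 FPKM in every library. Of the 11 with a mean of at least 1 FPKM, 9 (81.8%) had both knockdown libraries above both controls and 0 had both below. Among all transcripts with such a mean, these shares were 35.1% and 15.6%. The median log2 fold change of the 11, on log2(FPKM + 1), was 0.87. The mean that chose the 11 includes the knockdown libraries. VCAN, INHA and GATM reached 1 FPKM only through these libraries. VCAN, for example, had 0.811 and 0.524 FPKM in NC and 3.93 and 2.71 FPKM in KDM5_KD. The share of 81.8% and the median of 0.87 are therefore partly set by this choice. The shares of all transcripts rest on the same minimum. In bulk RNA, fewer cells of a type and less RNA per cell cannot be told apart. The part of these marker differences in the results below was not tested.

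The enzyme genes spanned a wide range of levels, and their levels were alike from library to library, while genes of similar level often changed places. PRMT1, the main enzyme of asymmetric arginine methylation, had the highest mean level of the 66, from 186 to 199 FPKM. JMJD6, an oxygenase of the JmjC family that acts on proteins and RNA, followed with 156 to 195 FPKM and exceeded PRMT1 in KDM5_KD replicate 1. KMT5A, which monomethylates H4K20, ranged from 90.5 to 101 FPKM. PRMT8 was listed at 0 in all 4 libraries. Across the 66 genes, Pearson's r of log2(FPKM + 1) was 0.988 between the NC libraries, 0.992 between the KDM5_KD libraries and 0.986 to 0.990 between groups. These are correlations of levels across genes, which share the same libraries and are no replicates. Of 64 neighbouring pairs in the order of mean level, 10 kept their order in all 4 libraries.

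**Figure D1:**
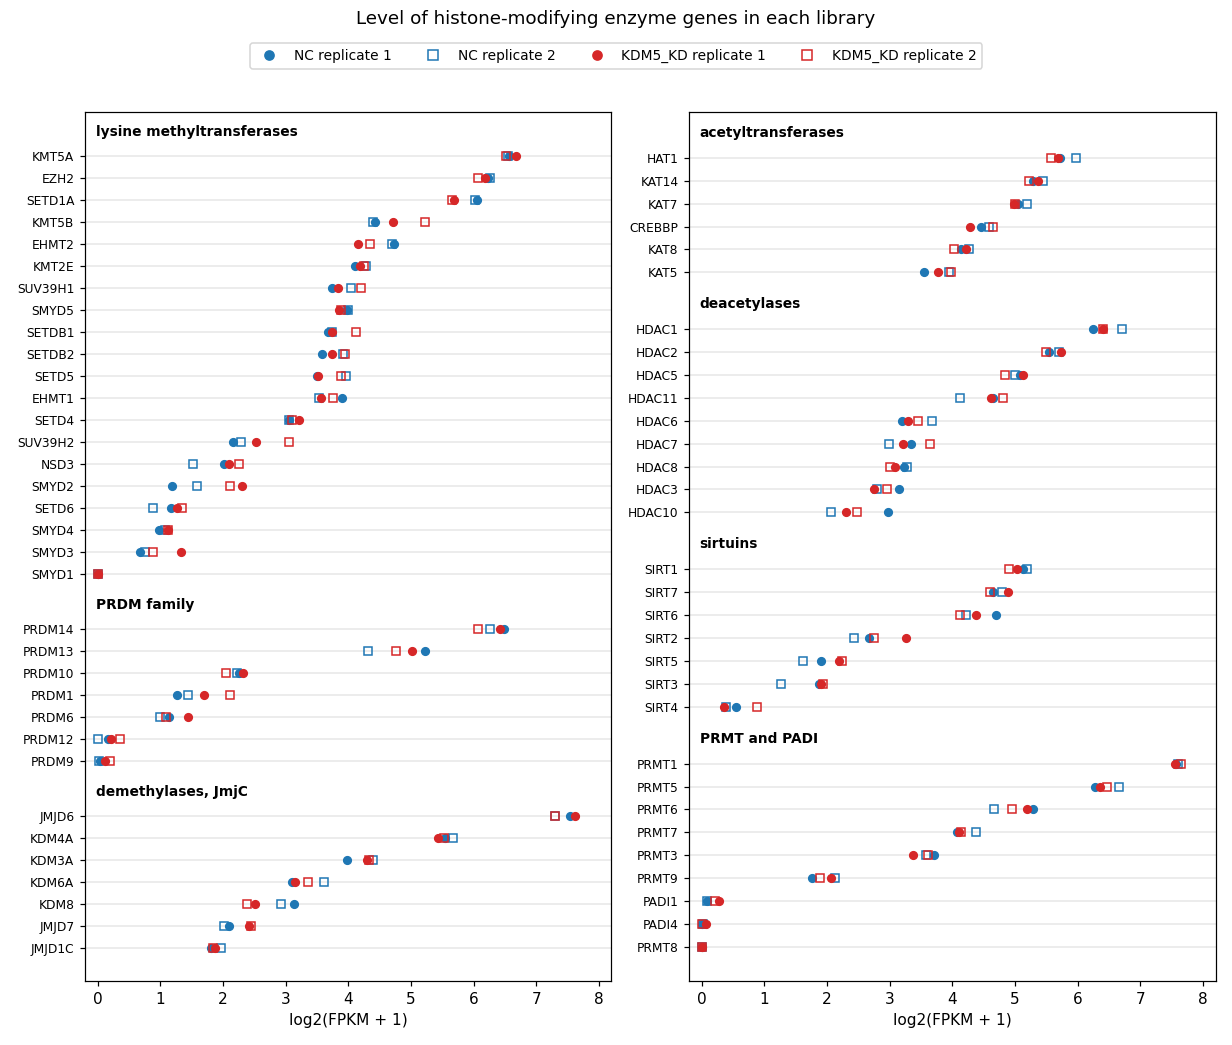
Level of 65 of the 66 enzyme genes as log2(FPKM + 1) (x axis), by class and in order of mean level (y axis); filled circles are replicate 1 and open squares replicate 2 of NC (blue) and KDM5_KD (red). The 4 symbols of a gene mostly lie close together compared with the range over all genes, though neighbouring genes often overlap. PRMT1 and JMJD6 reach the highest levels.

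Differences between groups were tested with limma on log2(FPKM + 1) in a fit over all 8970 transcripts with a mean of at least 1 FPKM. Log2 fold changes are KDM5_KD minus NC on that scale, which understates the change of low genes. Of the 66 enzyme genes, 57 entered the test. The 9 left out had means below 1 FPKM, among them PRDM9, PRDM12, PADI1, PADI4, PRMT8, SIRT4, SMYD1 and SMYD3. Of the 57, none had an NC mean under 1 FPKM.

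None of the 57 enzyme genes passed a limma adjusted p of 0.05, where 0.279% of all transcripts tested did. The lowest limma adjusted p among them was 0.175. Of the siRNA targets, which are not in this list, KDM5A passed the threshold (log2 fold change -1.35, limma adjusted p 0.0333). KDM5C, at 47.9% of the control level, did not (log2 fold change -1.0, limma adjusted p 0.123). A difference of that size can therefore miss the threshold in this fit. Before adjustment, 5 of the 57 (8.77%) had a limma p under 0.05, against 17.5% of all transcripts. These 5 were SMYD2 and KMT5B, higher in KDM5_KD, and SETD1A, EHMT2 and KDM8, lower in KDM5_KD. The other 52 had unadjusted p-values at or above 0.05 in limma.

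Both knockdown libraries lay above both control libraries for 12 of the 57 (21.1%), against 35.1% of all transcripts, and below both for 10 (17.5%), against 15.6%. The other 35 overlapped between groups. Log2 fold changes ran from -0.58 to 0.82 with a median of -0.014, where the median over all transcripts tested was 0.092. The middle 50% of enzyme genes lay between -0.11 and 0.13, and the middle 50% of all transcripts between -0.093 and 0.35. These are descriptions of the list beside the whole table and not a test of it. Median-ratio scaling moved the median of all transcripts to -0.0066 and that of the enzyme genes to -0.12. It left 8 above and 13 below, against 25.9% and 25.4% of all transcripts. Quantile normalization left 4 above and 17 below, against 20.7% and 28.3% of all transcripts. Rescaling each library to a common sum left 8 above and 19 below, against 24.2% and 25.5%. The balance between higher and lower genes therefore depended on the scaling, among the enzyme genes and in the whole table.

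The fit also bounded the differences. For 51 of the 57 enzyme genes (89.5%) the 95% interval of the log2 fold change lay within -1 to 1 on the log2(FPKM + 1) scale. For genes of low level, such as SIRT5 and SETD6, these bounds allow a larger fold difference in FPKM than for genes of high level. Of all transcripts tested, 77.6% had such an interval. The 6 exceptions were SMYD2, KMT5B, SUV39H2, PRDM1, SIRT2 and KDM8, whose intervals reached past 1 or, for KDM8, past -1.

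**Figure D2:**
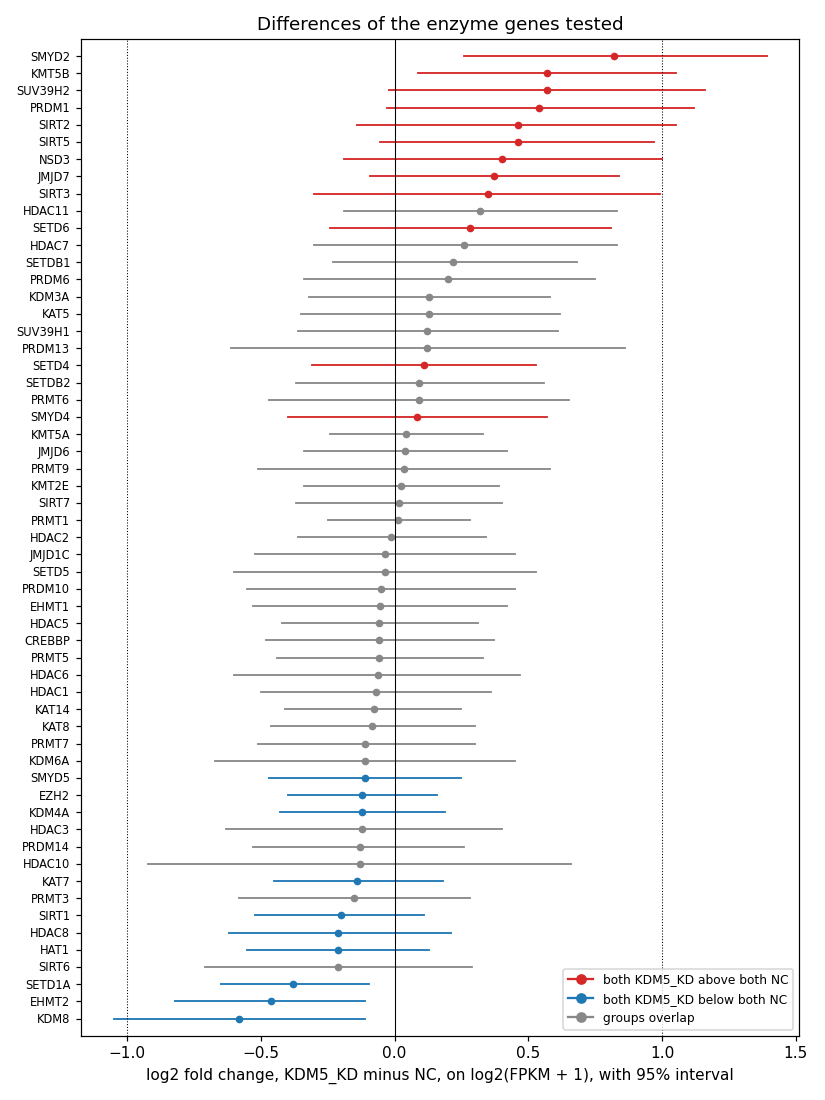
Log2 fold change of the 57 enzyme genes tested, KDM5_KD minus NC on log2(FPKM + 1) (x axis), in order of size (y axis); points are limma estimates from 2 libraries a group, bars their 95% intervals, and dotted lines mark -1 and 1. Red and blue genes have knockdown values entirely above or below the controls, and 51 of the 57 bars lie between the dotted lines.

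Lysine methyltransferases write marks of both active and silent chromatin, and 18 of their 20 genes were tested. In 7 of the 18 (38.9%) both knockdown libraries lay above the controls and in 4 (22.2%) below, beside 35.1% and 15.6% of all transcripts. SETD1A, the catalytic subunit of a COMPASS complex that methylates H3K4, had 65.7 and 64.2 FPKM in NC and 50.5 and 49.2 FPKM in KDM5_KD. The groups were far apart compared with the spread within them. Its log2 fold change was -0.38 with an SE of 0.114 (95% interval -0.65 to -0.096, limma adjusted p 0.195). It lay between -0.39 and -0.36 when single libraries were left out.

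EHMT2, also called G9a, and EHMT1 form a dimer that mono- and dimethylates H3K9. EHMT2 had 25.5 and 24.9 FPKM in NC and 16.8 and 19.3 FPKM in KDM5_KD, so its level with the knockdown was 71.6% of the control level (log2 fold change -0.46 with an SE of 0.145, limma adjusted p 0.200). EHMT1 had 14.0 and 10.6 FPKM in NC and 10.9 and 12.5 FPKM in KDM5_KD, and its groups overlapped (log2 fold change -0.054, 95% interval -0.53 to 0.42). The ratio of EHMT2 to EHMT1, which a single scaling factor per library cannot alter, was 1.83 and 2.36 in NC and 1.54 in each KDM5_KD library. EHMT2 was the more abundant partner in all 4 libraries.

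The SUV39H enzymes trimethylate H3K9 in heterochromatin. SUV39H1 had 12.4 and 15.5 FPKM in NC and 13.3 and 17.4 FPKM in KDM5_KD, overlapping between groups. SUV39H2 had 3.47 and 3.88 FPKM in NC and 4.77 and 7.31 FPKM in KDM5_KD, a log2 fold change of 0.57 with an SE of 0.241 (limma adjusted p 0.300). KDM5_KD replicate 2 was the highest library for both, and without it the SUV39H2 difference was 0.31. SUV39H1 exceeded SUV39H2 by 3.57 and 4.01 times in NC and by 2.79 and 2.38 times in KDM5_KD.

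The other H3K9 methyltransferases of the SETDB type, SETDB1 and SETDB2, differed little from each other in level. SETDB1, which works with the corepressor TRIM28, had 11.8 and 12.4 FPKM in NC and 12.3 and 16.4 FPKM in KDM5_KD. SETDB2 had 11.0 and 14.1 against 12.3 and 14.5 FPKM. Both overlapped between groups.

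KMT5A and KMT5B act in sequence on H4K20, the first adding 1 methyl group and the second adding more. KMT5A had 93.4 and 92.2 FPKM in NC and 101 and 90.5 FPKM in KDM5_KD, a log2 fold change of 0.043 (95% interval -0.24 to 0.33, limma adjusted p 0.887). Median-ratio scaling turned the sign of this difference, to -0.068. KMT5B had 20.5 and 20.0 FPKM in NC and 25.3 and 36.6 FPKM in KDM5_KD (log2 fold change 0.57 with an SE of 0.196, limma adjusted p 0.229). The KMT5B controls were close and the knockdown libraries far apart: its difference was 0.31 without KDM5_KD replicate 2 and 0.82 without KDM5_KD replicate 1. KMT5A exceeded KMT5B by 4.56 and 4.60 times in NC and by 3.98 and 2.47 times in KDM5_KD.

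EZH2, the catalytic subunit of the Polycomb complex PRC2 that methylates H3K27, had 74.4 and 75.5 FPKM in NC and 71.3 and 66.6 FPKM in KDM5_KD. The knockdown libraries were lower, by a log2 fold change of -0.12 (95% interval -0.40 to 0.16, limma adjusted p 0.642).

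Among the SMYD genes, SMYD2 had the largest log2 fold change of the 57. It encodes a lysine methyltransferase with histone and non-histone substrates. It had 1.28 and 2.0 FPKM in NC and 3.93 and 3.33 FPKM in KDM5_KD, 2.21 times the control mean (log2 fold change 0.82 with an SE of 0.231, 95% interval 0.26 to 1.39, limma adjusted p 0.175). Without single libraries its log2 fold change ranged from 0.62 to 1.02. SMYD5 had 14.7 and 14.9 FPKM in NC and 13.4 and 13.8 FPKM in KDM5_KD (log2 fold change -0.11, limma adjusted p 0.748). SMYD4 had 0.983 and 1.11 FPKM in NC and 1.17 FPKM in each KDM5_KD library, just above the minimum of 1. SMYD3, with 0.590 and 0.690 FPKM in NC and 1.51 and 0.845 FPKM in KDM5_KD, was just below it. SMYD1, a muscle gene, was listed at 0 except for 0.00825 FPKM in KDM5_KD replicate 1. SMYD5, at 13.4 FPKM or more, was thus above the other SMYD genes in every library, while the ranges of SMYD3 and SMYD4 overlapped.

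NSD3, an H3K36 methyltransferase gene, had 3.04 and 1.88 FPKM in NC and 3.26 and 3.78 FPKM in KDM5_KD. The controls were further apart than the groups: the log2 fold change was 0.40, the NC libraries differed by 0.49, and the log2 fold change was 0.16 without NC replicate 2. SETD4 had 7.29 and 7.30 FPKM in NC and 8.32 and 7.63 FPKM in KDM5_KD, a log2 fold change of 0.11 (limma adjusted p 0.785) that became -0.09 after quantile normalization. SETD6, which methylates the NF-kappa-B subunit RELA, had 1.25 and 0.847 FPKM in NC and 1.41 and 1.55 FPKM in KDM5_KD. SETD5 ranged from 10.3 to 14.6 FPKM and KMT2E from 16.2 to 18.4 FPKM, and both overlapped between groups.

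The PRDM family combines a domain related to those of methyltransferases with zinc fingers, and many members act as transcription factors. PRDM14, a factor of pluripotent and germ cells, was the highest of the 8, with 89.1 and 76.1 FPKM in NC and 84.8 and 66.5 FPKM in KDM5_KD. Its groups overlapped (log2 fold change -0.13, 95% interval -0.53 to 0.26, limma adjusted p 0.727). PRDM13, known from neural and retinal development, was next with 36.2 and 18.8 FPKM in NC and 31.4 and 26.1 FPKM in KDM5_KD. Here the controls differed from each other by 0.91 on the log2 scale, far more than the groups did (0.12). PRDM13 was above the third gene of the family, PRDM10, in every library by a wide margin (18.8 FPKM at its lowest against 4.0 FPKM at most).

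PRDM1, a repressor that specifies germ cells, had 1.41 and 1.72 FPKM in NC and 2.23 and 3.32 FPKM in KDM5_KD (log2 fold change 0.54 with an SE of 0.234, limma adjusted p 0.308). It was the only one of the 5 PRDM genes tested (20.0%) whose groups did not overlap, where 50.7% of all transcripts did not. Its log2 fold change was 0.33 without KDM5_KD replicate 2. PRDM6 ranged from 0.987 to 1.72 FPKM and overlapped. PRDM12 reached 0.276 FPKM at most. PRDM9, which marks recombination sites with H3K4 methylation in meiosis, reached 0.149 FPKM at most. No read count stands behind these low values, so no detection limit can be given for them.

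Among the lysine demethylases and JmjC proteins, all 7 genes were tested. KDM8, also called JMJD5, encodes a JmjC protein and had the lowest log2 fold change of the 57. It had 7.80 and 6.58 FPKM in NC and 4.72 and 4.23 FPKM in KDM5_KD, or 62.2% of the control level (log2 fold change -0.58 with an SE of 0.193, 95% interval -1.05 to -0.11, limma adjusted p 0.217). Without single libraries it ranged from -0.69 to -0.47. Both knockdown libraries lay below both controls, so leaving out 1 library could not have changed the direction.

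KDM6A, which removes methyl groups from H3K27 and is named in the conflicting treatment entry, had 7.63 and 11.3 FPKM in NC. It had 7.90 FPKM in KDM5_KD replicate 1 and 9.29 FPKM in KDM5_KD replicate 2. The library whose entry names KDM6 siRNAs therefore did not have the lower KDM6A level of the pair, and both fell within the range of the controls. The 95% interval of the log2 fold change was -0.67 to 0.45.

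KDM4A, a demethylase of H3K9 and H3K36, had 45.5 and 49.8 FPKM in NC and 42.0 and 45.4 FPKM in KDM5_KD (log2 fold change -0.12, limma adjusted p 0.666). Its NC replicate 1 and KDM5_KD replicate 2 values were nearly equal. JMJD6 had 185 and 156 FPKM in NC and 195 and 156 FPKM in KDM5_KD, so that replicate 1 was the higher library in both groups. KDM3A, which demethylates H3K9, ranged from 14.7 to 20.0 FPKM and JMJD1C from 2.52 to 2.92 FPKM, with overlapping groups. JMJD7, a JmjC hydroxylase gene, had 3.27 and 3.06 FPKM in NC and 4.34 and 4.44 FPKM in KDM5_KD. Its libraries agreed closely within groups, and its log2 fold change was 0.37 with an SE of 0.190 (limma adjusted p 0.379).

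Acetyltransferases open chromatin or mark newly made histones, and all 6 were tested. Their order of level was the same in all 4 libraries: HAT1, KAT14, KAT7, CREBBP, KAT8 and KAT5. HAT1, which acetylates newly made histone H4, had 51.4 and 61.7 FPKM in NC and 50.4 and 46.6 FPKM in KDM5_KD (log2 fold change -0.21, 95% interval -0.55 to 0.13, limma adjusted p 0.489). KAT7, the catalytic subunit of HBO1 complexes, had 32.2 and 35.6 FPKM in NC and 30.5 and 30.9 FPKM in KDM5_KD (log2 fold change -0.14, limma adjusted p 0.629). Without NC replicate 2 these differences were -0.082 for HAT1 and -0.069 for KAT7, and without NC replicate 1 that of HAT1 was -0.34. In these 2 genes (33.3% of the 6) both knockdown libraries lay below both controls, as in 15.6% of all transcripts. For HAT1 the NC and KDM5_KD values nearest to each other were close, at 51.4 and 50.4 FPKM.

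KAT14, a subunit of the ATAC complex, had 38.0 and 42.7 FPKM in NC and 40.2 and 36.2 FPKM in KDM5_KD. CREBBP, a coactivator that acetylates H3K27, had 21.0 and 23.1 against 18.5 and 24.1 FPKM. KAT8, which acetylates H4K16, ranged from 15.3 to 18.3 FPKM, and KAT5, the catalytic subunit of the NuA4 complex, from 10.7 to 14.8 FPKM. The groups of these 4 overlapped.

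The 9 deacetylase genes were all tested, and 8 of them overlapped between groups. Among all transcripts, 4420 of the 8970 tested overlapped. HDAC1 and HDAC2, which share the SIN3, NuRD and CoREST complexes, had the highest levels. HDAC1 had 74.5 and 104 FPKM in NC and 84.0 and 83.7 FPKM in KDM5_KD, the knockdown values lying between the controls (log2 fold change -0.068, 95% interval -0.50 to 0.36). HDAC2 had 45.7 and 51.1 FPKM in NC and 52.3 and 43.9 FPKM in KDM5_KD (log2 fold change -0.014, 95% interval -0.36 to 0.34). HDAC1 exceeded HDAC2 in every library, by 1.61 to 2.03 times.

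HDAC8 was the exception. It had 8.35 and 8.73 FPKM in NC and 7.45 and 7.07 FPKM in KDM5_KD (log2 fold change -0.21 with an SE of 0.170, limma adjusted p 0.580). HDAC5 followed HDAC2 in level with 27.8 to 34.0 FPKM, and HDAC11 followed with 16.5 to 27.1 FPKM. Below them the ranges of HDAC6, HDAC7, HDAC8, HDAC3 and HDAC10 overlapped from each gene to the next, between 3.19 and 11.8 FPKM. Within each library HDAC8 was nevertheless above HDAC3 and HDAC3 above HDAC10, while HDAC6, HDAC7 and HDAC8 changed places. HDAC3, the enzyme of the NCOR corepressor complexes, lay between 5.74 and 7.84 FPKM. HDAC10 had 6.84 and 3.19 FPKM in NC and 3.96 and 4.55 FPKM in KDM5_KD, and its controls differed by 0.90 on the log2 scale against a group difference of -0.13.

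Sirtuins are NAD-dependent deacylases of the nucleus, cytoplasm and mitochondria. SIRT1, a nuclear sirtuin, had 34.1 and 35.7 FPKM in NC and 31.6 and 28.8 FPKM in KDM5_KD (log2 fold change -0.20, 95% interval -0.52 to 0.11, limma adjusted p 0.473). The other nuclear members, SIRT6 and SIRT7, overlapped between groups, with 16.4 to 24.9 FPKM and 23.2 to 28.5 FPKM. The nuclear sirtuins were the 3 highest of the 7 genes in every library.

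The sirtuins outside the nucleus had lower levels. SIRT2, mainly cytoplasmic, had 5.35 and 4.39 FPKM in NC and 8.62 and 5.69 FPKM in KDM5_KD (log2 fold change 0.46 with an SE of 0.243, limma adjusted p 0.394), and its log2 fold change was 0.19 without KDM5_KD replicate 1. SIRT5, a mitochondrial desuccinylase, had 2.75 and 2.07 FPKM in NC and 3.57 and 3.73 FPKM in KDM5_KD (log2 fold change 0.46 with an SE of 0.210, limma adjusted p 0.331). SIRT3, the mitochondrial deacetylase, had 2.68 and 1.40 FPKM in NC and 2.75 and 2.81 FPKM in KDM5_KD, where NC replicate 1 was close to the knockdown. For SIRT2, SIRT3 and SIRT5 both knockdown libraries were above both controls. SIRT4, not tested, ranged from 0.274 to 0.841 FPKM.

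Arginine methyltransferases modify histones as well as RNA-binding proteins, and the groups of all 6 genes tested overlapped. Of all 8970 transcripts tested, 4420 overlapped. PRMT1 had 189 and 193 FPKM in NC and 186 and 199 FPKM in KDM5_KD, with a narrow interval of the log2 fold change (0.013, 95% interval -0.25 to 0.28). PRMT5, which makes symmetric dimethylarginine, had 76.5 and 99.8 FPKM in NC and 80.8 and 87.1 FPKM in KDM5_KD (log2 fold change -0.059, 95% interval -0.44 to 0.33). PRMT1 stood above PRMT5 in every library, by 1.93 to 2.47 times. PRMT6 had 38.1 and 24.3 FPKM in NC and 35.4 and 29.9 FPKM in KDM5_KD. PRMT7 ranged from 15.8 to 19.8 FPKM, PRMT3 from 9.35 to 12.0 FPKM and PRMT9 from 2.39 to 3.38 FPKM. These ranges did not overlap, so the 6 genes had the same order in every library. The deiminase genes PADI1 and PADI4, which turn arginine into citrulline, stayed at or below 0.204 and 0.0464 FPKM.

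The 12 enzyme genes with both knockdown libraries above both controls were mostly of low level. When all transcripts tested were divided into 4 equal groups by mean level, 11 enzyme genes fell in the lowest, below 3.71 FPKM, and 7 of them lay above both controls and none below. Among all transcripts of that level, 48.0% lay above and 9.01% below. In the highest group, from 28.7 FPKM, none of the 16 enzyme genes lay above and 6 lay below, where all transcripts had 21.0% above and 24.5% below. From the lowest group to the highest, the median log2 fold change of the enzyme genes was 0.28, -0.063, 0.015 and -0.072. That of all transcripts was 0.25, 0.16, 0.059 and -0.017. The medians of all transcripts thus fell at each step. Those of the enzyme genes did not, but each rests on only 11 to 19 genes. The mean that set the groups includes the knockdown libraries. By the mean, 9, 5, 10 and 4 enzyme genes of these groups were higher in KDM5_KD. KMT5B, at a mean of 25.6 FPKM, was the one gene of the 12 above both controls with a mean of over 10.5 FPKM.

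**Figure D3:**
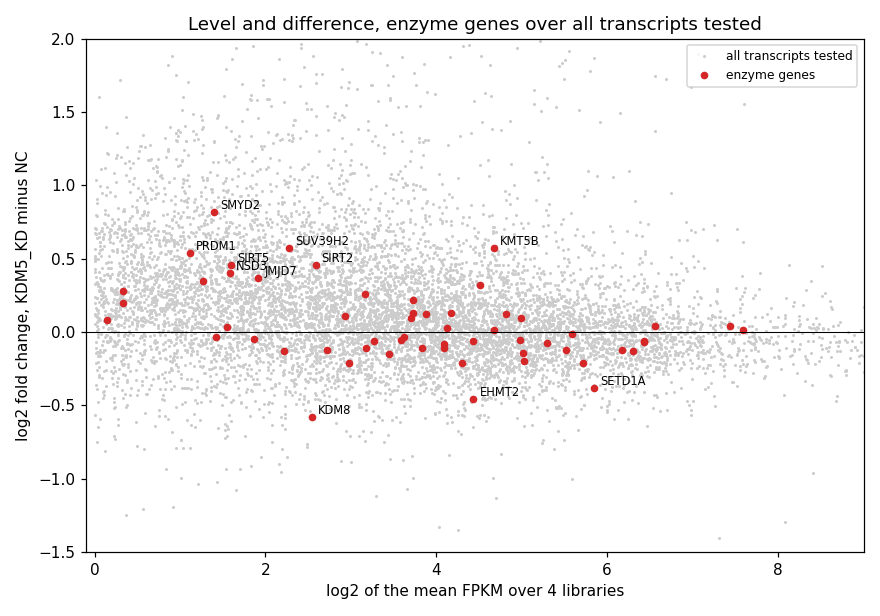
Log2 fold change, KDM5_KD minus NC on log2(FPKM + 1) (y axis), against log2 of the mean FPKM over 4 libraries (x axis), for all transcripts tested (grey) and the 57 enzyme genes (red); 109 grey transcripts lie outside the axes. Low enzyme genes such as SMYD2 and PRDM1 lie above 0 within a grey cloud that is also shifted upward at low levels, and most enzyme genes of high level lie close to 0, with SETD1A at -0.38.

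The spread between the controls was as large as most differences. In 37 of the 57 enzyme genes (64.9%) the NC libraries differed from each other by more than the group means did, which was so for 49.4% of all transcripts. The median distance between the NC libraries was 0.21 on the log2 scale for the enzyme genes and 0.22 for all transcripts. The median size of the group difference was 0.12 for the enzyme genes and 0.21 for all transcripts. A distance between single libraries varies more than one between means of 2 libraries, so the control distance and the group difference are not like measures. In 14 of the 22 enzyme genes whose groups did not overlap, the difference exceeded the distance between the libraries of either group (63.6%, against 73.6% of all such transcripts). NC replicate 1 was the higher control for 7 of the 12 genes above both controls (58.3%, against 66.3% of all such transcripts). It was the lower control for 7 of the 10 genes below both controls (70.0%, against 46.9%).

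**Figure D4:**
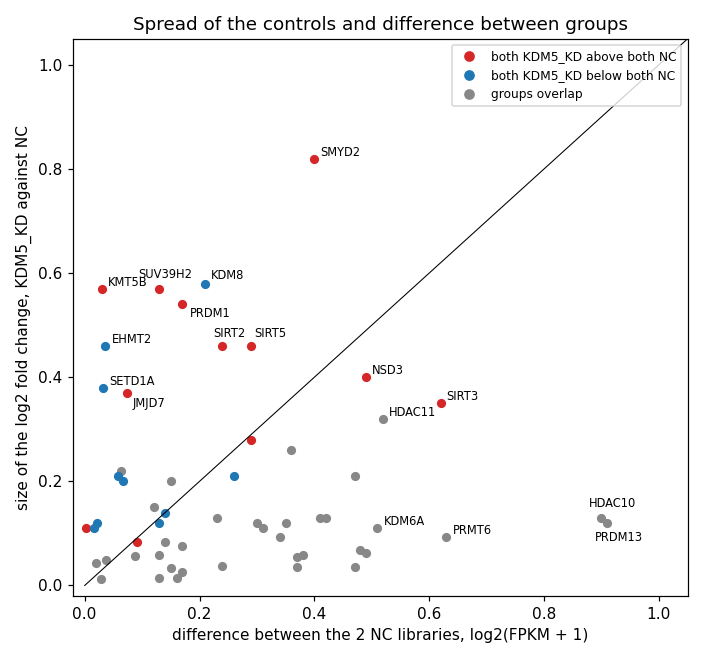
Size of the log2 fold change between KDM5_KD and NC (y axis) against the difference between the 2 NC libraries (x axis), both on log2(FPKM + 1), for each of the 57 enzyme genes; colours show whether the groups overlapped, and the line marks equality. The 37 genes below the line, HDAC10 and PRDM13 among them, differed more between controls than between groups, while KMT5B, EHMT2 and SETD1A had close controls.

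Most of these enzymes work in complexes with non-catalytic partners. Of a list of 78 partner genes of the COMPASS, PRC2, SIN3, NuRD, CoREST, SAGA, NuA4, MOZ, H3K9 and PRMT5 complexes, 61 were tested and none passed a limma adjusted p of 0.05 in either direction. Both knockdown libraries lay above both controls for 13 (21.3%) and below for 7 (11.5%) of the 61, beside 35.1% and 15.6% of all transcripts. Their median log2 fold change was 0.034, where that of all transcripts was 0.092. Before adjustment 6 of the 61 (9.84%) had a limma p under 0.05, a smaller share than the 17.5% of all transcripts. Of these, 2 were lower in KDM5_KD and 4 higher, and they are named here after their values were seen. TRIM28, the corepressor that recruits SETDB1, had 169 and 130 FPKM in NC and 107 and 97.5 FPKM in KDM5_KD (log2 fold change -0.53, limma adjusted p 0.186), and its log2 fold change was -0.34 without NC replicate 1. TRRAP, a scaffold shared by SAGA and NuA4, had 33.1 and 31.5 FPKM in NC and 25.5 and 23.8 FPKM in KDM5_KD (log2 fold change -0.38, limma adjusted p 0.229). The 4 that were higher were CBX1, ING2, PHF19 and TBL1X, with log2 fold changes from 0.40 to 0.68. Without KDM5_KD replicate 2 that of TBL1X went from 0.68 to 0.40 and that of CBX1 from 0.54 to 0.35. PHF19 had 1.02 and 0.678 FPKM in NC and 2.11 and 1.62 FPKM in KDM5_KD. It reached the minimum mean of 1 FPKM only through the knockdown libraries, and its log2 fold change was 0.3 after quantile normalization.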

How the data were processed

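The 4 libraries were grouped by title. Trimmomatic, HISAT2, featureCounts and Cufflinks are named, without versions or roles, per the submitters' processing notes; the genome build and annotation are not given in the sources used here. The authors deposited 1 table of FPKM values for 14517 RefSeq transcripts, a unit taken from its name and values. Libraries were made from oligo(dT)-selected RNA with PCR, per the labels' protocols, which state no strand and no molecular identifiers. Symbols came from a RefSeq table of ARS-UCD2.0 by accession and matched 14295 rows; no position is given. Related genes may share reads.

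FPKM are not counts, so no count model was used. limma 3.58.1 (R 4.3.3; lmFit, eBayes with trend) was fitted to log2(FPKM + 1), pseudocount 1, over the 8970 transcripts with a mean of at least 1 FPKM, all 4 libraries, no covariates, Benjamini-Hochberg adjustment, and was tested on simulated data. With 2 libraries a group, precision rests on their number. The genes and lists were chosen with earlier results of these data known. Named by rule were genes past the threshold; per direction the 10 largest changes with a mean of at least 5 FPKM and groups apart; KDM6A; and the 2 highest genes of each class. SMYD2, SUV39H2, PRDM1, SIRT5, NSD3, JMJD7, EHMT1 and all other genes were named after their values were seen. Other pseudocounts, filters, scalings, variance models, summed rows, a block and left-out libraries were tried. Plots used matplotlib 3.10.9. The values of 1 gene below the minimum are not reported here.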

Additional observations from a re-analysis of the deposited data

How the results depend on the processing

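No enzyme gene passed a limma adjusted p of 0.05 in any of the 15 alternatives, where the lowest value lay between 0.153 and 0.514; calls over all transcripts went from 25 to between 3 (no filter) and 46 (robust eBayes), with 12 for eBayes without trend and 12 for the replicate block, and between 6 and 340 with a library left out. In the fit with replicate blocks the count of enzyme genes past the threshold was 0 and their median -0.014, with 7 unadjusted p-values under 0.05 against 5. Nothing in the labels says that a number marks a shared batch, and deviations of same-numbered libraries correlated at 0.229. The median of the enzyme genes was -0.12 with median-ratio scaling and -0.12 with a common sum. The number above both controls was 3 with a minimum mean of 5 FPKM, which tests 43 enzyme genes, and 4 with quantile normalization, beside 29.4% and 20.7% of all transcripts; the number below was 17 with quantile normalization and 19 with a common sum, beside 28.3% and 25.5%. With 1 library left out, a looser criterion, 19 to 26 lay above and 14 to 22 below, beside at least 45.0% above and 25.4% to 28.9% below of all transcripts. Scalings that lower the knockdown libraries reversed small differences: PRMT1 to -0.098 (median ratio), -0.10 (common sum) and -0.055 (common sum without microRNA rows), JMJD6 to -0.073, -0.077 and -0.03, KMT5A to -0.068, -0.072 and -0.025, and SIRT7 to -0.093, -0.097 and -0.052, and -0.055 with quantile normalization, which took SETD4 to -0.09. With single libraries left out, ranges crossed 0 for KDM6A (-0.37 to 0.15), PRDM14 (-0.30 to 0.042), PRDM13 (-0.33 to 0.58), KAT14 (-0.16 to 0.0072), PRMT1 (-0.035 to 0.061), PRMT5 (-0.25 to 0.13), HDAC1 (-0.31 to 0.17), HDAC2 (-0.14 to 0.11), HDAC10 (-0.58 to 0.32), JMJD6 (-0.12 to 0.20), KMT5A (-0.035 to 0.12), SIRT7 (-0.13 to 0.16) and EHMT1 (-0.24 to 0.13); the lone library of a group is then assumed to vary like the others. The direction of these genes is not determined. The unfiltered fit left out rows at 0 in all libraries, PRMT8 among them. Read counts are unknown, so depth sets no stated limit.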
